A study of Mus musculus with 10 samples.

Results

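The 10 libraries of the series, bulk RNA sequencing of cells sorted as CD8+ T cells from tumours, were divided by how much T cell RNA they held. The members were selected on measured values. For each library, a T cell score was taken as the mean log2(TPM + 1) of 8 genes, the CD3 chains Cd3d, Cd3e and Cd3g, the receptor constant genes Trac, Trbc1 and Trbc2, and the CD8 chains Cd8a and Cd8b1, where TPM is transcript abundance per gene length, scaled to the same total in each library. Libraries with a score of at least 2.8 are called T cell-rich and the others T cell-poor, which gave 5 T cell-rich and 5 T cell-poor libraries of 10 in all. The series asks what Ser452 of the tyrosine phosphatase Pep, the product of Ptpn22, does in T cells that infiltrate tumours. Mice were WT or carried S452A, a change of that serine to alanine, written S425A in the series' design text. All mice were 8 weeks old when MC38 cells, a mouse colon carcinoma line, were injected, and all tumours were taken 18 days later and digested with collagenase before the sort. No untreated mice and no unsorted tumour cells were used here. The labels number 5 separate mice in each genotype, here WT1 to WT5 and A1 to A5 for S452A. The T cell-rich libraries were WT1, WT3, WT4, A3 and A5, so 3 WT and 2 S452A, and the T cell-poor libraries were WT2, WT5, A1, A2 and A4, so 2 WT and 3 S452A.

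Every T cell carries the CD3 chains, which pass the signal of the antigen receptor into the cell, and most carry the alpha and beta receptor chains whose constant parts are encoded by Trac, Trbc1 and Trbc2. Cytotoxic T cells add CD8, a coreceptor made of the products of Cd8a and Cd8b1 that binds MHC class I. In tumours such cells kill through granzymes and perforin, recruit dendritic cells through chemokines, and with repeated stimulation gain inhibitory receptors such as PD-1. The name T cell-rich is relative here. The summed level of the 8 genes was 63.3 to 135 TPM (median 80.2) in T cell-rich and 12.1 to 45.7 TPM (median 21.5) in T cell-poor libraries. Macrophage and monocyte markers, a list of 36 genes such as Adgre1 and Apoe, summed to 30141 to 38456 TPM in T cell-rich and 31892 to 40378 TPM in T cell-poor libraries. Thus markers of macrophages far exceeded those of the labelled cell type in all 10 libraries. The files hold TPM only, so sequencing depth is unknown, and fewer T cells in a library cannot be told apart from less RNA per T cell.

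The scores formed a graded series and no wide gap marked the threshold. The T cell-rich scores were 4.02 in A3, 3.88 in WT3, 3.33 in A5, 3.23 in WT1 and 3.04 in WT4, and the T cell-poor scores were 2.54 in A2, 2.14 in A4, 1.66 in WT5, 1.28 in A1 and 1.16 in WT2. The libraries just inside and just outside the threshold, WT4 and A2, differed by 0.50, while the gap between WT3 and A5 within the T cell-rich libraries was 0.55 and that between A4 and WT5 within the T cell-poor libraries was 0.49. Since these values made the groups, they are given with no test.

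**Figure D1:**
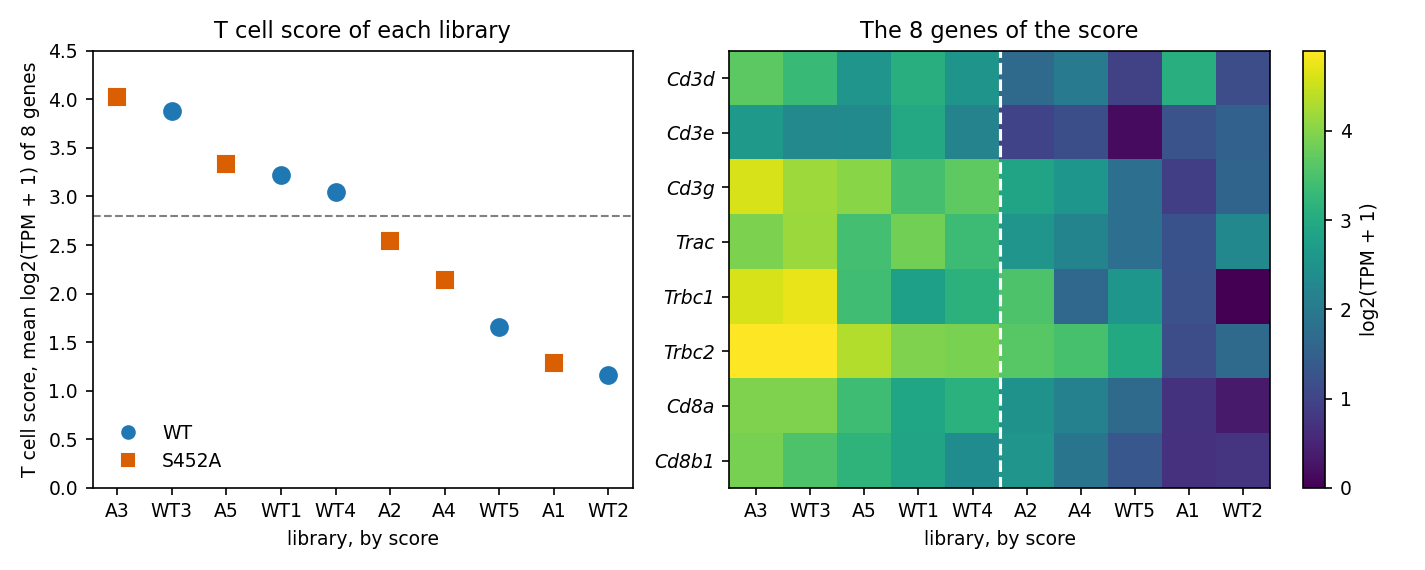
Left, T cell score (mean log2(TPM + 1) of 8 genes) of each library, ordered from high to low, with circles for WT, squares for S452A and a dashed line at the threshold of 2.8; right, log2(TPM + 1) of each of the 8 genes in the same libraries, with a dashed line between T cell-rich and T cell-poor. The scores run from 4.02 in A3 to 1.16 in WT2 in small steps, and both genotypes lie on both sides of the threshold.

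The 8 genes did not all divide the libraries cleanly. Cd8a was at 6.37 TPM in WT1, 14.4 in WT3, 7.73 in WT4, 14.5 in A3 and 9.32 in A5, against 0.27 in WT2, 2.23 in WT5, 0.64 in A1, 4.63 in A2 and 3.42 in A4, with no overlap. Cd3g was at 9.95 to 23.3 TPM against 0.88 to 6.30 TPM, and Trac at 9.25 to 16.8 TPM against 1.35 to 4.87 TPM. Cd3e (3.54 to 6.79 TPM against 0.11 to 1.87 TPM) and Trbc2 (14.1 to 28.8 TPM against 1.22 to 11.3 TPM) did not overlap either. The other 3 did: Cd3d reached 7.56 TPM in A1, a library at or below 1.37 TPM in each of the other 7 genes, Trbc1 reached 10.6 TPM in A2 and was listed at 0 in WT2, and Cd8b1 was at 4.86 TPM in A2 against 4.21 TPM in WT4. A3 and WT3 were the highest pair of libraries for 7 of the 8 genes, all but Cd3e, for which WT1 was highest.

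Receptor variable segments, which were not part of the score, followed the same division. Rearranged segments share their transcripts with Trac, Trbc1 and Trbc2, which are in the score, so this restates it and is a description. Of 239 annotated variable, diversity and joining segments of the alpha and beta receptor genes, 18 had a level above 0 in WT1, 33 in WT3, 21 in WT4, 34 in A3 and 28 in A5, against 6 in WT2, 9 in WT5, 4 in A1, 11 in A2 and 15 in A4. The groups did not overlap in this number. Only 1 segment reached 1 TPM in 5 libraries, so single segments were too low to compare, and no segment usage is given. The constant gene of the delta receptor chain, Trdc, was at 0.18 TPM or less everywhere, and genes listed for gamma delta T cells and innate-like T cells summed to 1.42 to 5.21 TPM in T cell-rich and 0.84 to 1.61 TPM in T cell-poor libraries, with none of them above the filter.

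All other genes that reached 1 TPM in 5 or more libraries were then compared between the groups with genotype as a term (13922 genes, limma on log2(TPM + 1), Benjamini-Hochberg adjusted p under 0.05). As the division was cut from measured values, a p-value here says only whether a gene went with that division over 10 mice, and a gene made by T cells restates it. In T cell-rich libraries 4 genes were higher, or 0.0287% of those tested, among them Gimap3, Gimap4 and Gimap7, and 0 genes (0%) were lower. At an unadjusted p under 0.05, 435 genes were higher and 255 lower. Together these are about as many of 13922 genes as that cutoff marks by chance alone. Over all 13922 genes the median difference was 0.01 on the log2 scale, and 52.3% of genes lay above 0.

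Of the 4 genes, 3 encode GIMAPs, small GTPases of immune cells best known for keeping naive lymphocytes alive, and they sit within 1 cluster of 8 Gimap genes on chromosome 6 (chr6:48647234-48770851, GRCm38). The 250 bases before their annotated starts are shown because these neighbours differed together (RefSeq, GRCm38.p6, 5′ to 3′ on the strand of the gene). Capitals mark matches, on either strand, to AGGAAG, a core bound by ETS factors, or TGTGGT, a core bound by RUNX factors. A match on the strand shown reads AGGAAG or TGTGGT, and a match on its complement reads CTTCCT or ACCACA.
Gimap3, chr6:48770852-48771101, minus strand: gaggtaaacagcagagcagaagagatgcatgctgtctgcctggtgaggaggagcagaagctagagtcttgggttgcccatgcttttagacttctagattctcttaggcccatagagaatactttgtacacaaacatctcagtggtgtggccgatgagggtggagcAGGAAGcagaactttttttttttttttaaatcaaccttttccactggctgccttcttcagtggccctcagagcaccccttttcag
Gimap4, chr6:48684328-48684577, plus strand: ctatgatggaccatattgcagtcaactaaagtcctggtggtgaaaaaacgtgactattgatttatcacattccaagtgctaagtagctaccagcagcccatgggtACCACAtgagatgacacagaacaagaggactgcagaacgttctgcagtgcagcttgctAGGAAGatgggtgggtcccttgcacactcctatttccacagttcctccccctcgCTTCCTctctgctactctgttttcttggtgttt
Gimap7, chr6:48718371-48718620, plus strand: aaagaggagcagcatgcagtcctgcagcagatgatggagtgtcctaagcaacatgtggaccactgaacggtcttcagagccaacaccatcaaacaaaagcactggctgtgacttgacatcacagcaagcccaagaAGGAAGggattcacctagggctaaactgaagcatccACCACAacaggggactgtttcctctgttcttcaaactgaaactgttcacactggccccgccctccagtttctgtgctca
Gimap3 held 1 match to the ETS core, Gimap4 held 2 and Gimap7 held 1, and the RUNX core was matched 1 time each in Gimap4 and Gimap7. Among 32851 promoter windows of the same length, 29.5% held the ETS core and 14.0% the RUNX core, while 13.8% held CTTTGA, a core bound by TCF1 that none of these 3 windows held. These letters are common, and a match is a description of the sequence only.

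Gimap3, whose product lies at intracellular membranes, was at 6.71 TPM in WT1, 5.48 in WT3, 6.89 in WT4, 9.28 in A3 and 7.05 in A5, against 1.63 in WT2, 1.19 in WT5, 0.99 in A1, 1.56 in A2 and 2.75 in A4. All 5 T cell-rich libraries stood above all 5 T cell-poor ones, with means of 7.08 ± 1.38 TPM (SD, n = 5) and 1.62 ± 0.68 TPM (SD, n = 5). The difference was 1.69 (SE 0.21, limma adjusted p = 0.0321) on the log2(TPM + 1) scale, on which changes of low genes appear too small. Gimap4, a regulator of T cell survival, was at 11.8 TPM in WT1, 12.2 in WT3, 9.62 in WT4, 12.1 in A3 and 9.58 in A5, against 3.19 in WT2, 2.91 in WT5, 1.25 in A1, 3.30 in A2 and 3.69 in A4. It likewise showed no overlap, with a difference of 1.65 (SE 0.22, limma adjusted p = 0.0321). Gimap7 was at 3.44 to 4.88 TPM in T cell-rich and 0.21 to 1.13 TPM in T cell-poor libraries, a difference of 1.62 (SE 0.21, limma adjusted p = 0.0321).

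The other 5 Gimap genes above the filter did not pass, and the family was looked at as a group after its values were seen. Gimap1, Gimap6, Gimap8 and Gimap9 had differences of 1.68, 1.57, 1.32 and 1.28 with no overlap between the groups, whereas Gimap5 (0.66, adjusted p = 0.9998) overlapped, with 6.48 TPM in A5 but 2.16 TPM in WT3 and 3.77 TPM in A2. In all, 7 of the 8 tested Gimap genes separated the groups, among them Gimap8, which reached the filter of 1 TPM only through the T cell-rich libraries and so had to separate, against 104 of 13922 genes (0.747%) with all T cell-rich above all T cell-poor libraries. Of the 104, 8 reached the filter in that way. In the opposite direction 36 genes (0.259%) separated the groups.

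The next genes of smallest p, which did not pass, also showed no overlap. Il2rb, the beta chain shared by the receptors of interleukin 2 and interleukin 15, was at 3.77 to 9.05 TPM in T cell-rich and 0.80 to 1.92 TPM in T cell-poor libraries (difference 1.71, SE 0.25, adjusted p = 0.0505). Sept1, a septin of the cytoskeleton, was at 14.5 TPM in WT1, 11.4 in WT3, 10.8 in WT4, 21.7 in A3 and 23.1 in A5, against 4.33 in WT2, 2.65 in WT5, 1 in A1, 5.12 in A2 and 3.25 in A4 (difference 2.11, SE 0.32, adjusted p = 0.0505). Cd2 and Plac8, which are described with the score, had differences of 1.81 and 1.105 at the same adjusted p.

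The calls between the groups were fragile. No gene passed after leaving out A3, WT1, WT2, WT4 or WT5, 1 gene passed without A4 (Gimap3) or without A5 (Xcl1), 2 predicted genes without WT3, 6 genes without A1 and 8 without A2. Over those fits the differences of Gimap3, Gimap4 and Gimap7 stayed between 1.48 and 1.79, but all 4 calls ended with the mean of the macrophage list as a covariate, with a pseudocount of 0.1, with no filter, and without WT1, WT4, A2 and A4, the libraries nearest to the threshold.

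**Figure D2:**
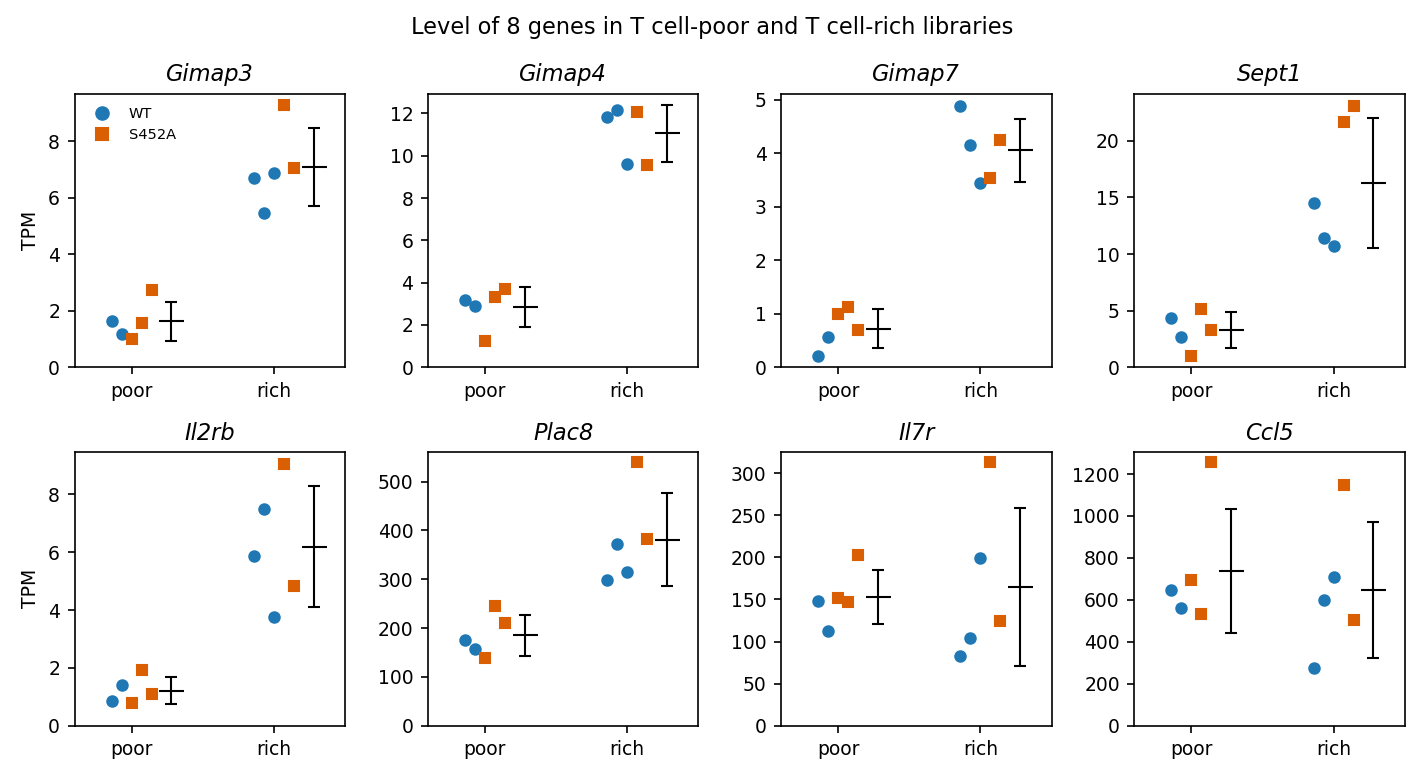
Level in TPM of 8 genes in T cell-poor and T cell-rich libraries, 1 point a library (circles WT, squares S452A), with bars for the mean and SD of 5 libraries. The 4 genes in the top row (Gimap3, Gimap4, Gimap7 and Sept1), Il2rb and Plac8 show no overlap between the groups, while Il7r and Ccl5 overlap.

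Using the score itself in place of the groups gave more genes. On this scale 16 genes rose with the score (0.115% of 13922) and 0 fell (0%, with 244 lower at an unadjusted p under 0.05). Of the 16, only Gimap4 had also passed between the groups, so 19 genes passed in either fit. Of the 16, 5 were on the cytotoxic list. Xcl1, a chemokine that draws XCR1+ dendritic cells, rose most steeply, by 1.49 log2 units per unit of score (SE 0.12, limma adjusted p = 0.000658). It was at 21.7 TPM in WT1, 40.5 in WT3, 22.5 in WT4, 57.4 in A3 and 13.0 in A5, against 1.73 in WT2, 2.83 in WT5, 2.43 in A1, 10.1 in A2 and 3.88 in A4, so that A2, just outside the threshold, lay close to A5. Nkg7, a granule protein needed for killing, rose by 1.14 per unit (SE 0.13, limma adjusted p = 0.00596), and Gzmb, the main granzyme, by 0.88 per unit (SE 0.11, limma adjusted p = 0.00988). Ctsw, a cathepsin of cytotoxic cells, and Klrc1, which encodes the NKG2A receptor, rose by 0.87 and 0.90 per unit.

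Another 6 were on the list of receptor signalling and lineage genes. Cd2, an adhesion and costimulatory receptor, rose by 0.97 per unit of score (SE 0.09, limma adjusted p = 0.000917) and Sh2d2a, an adaptor that binds Lck, by 1.02 per unit (SE 0.09, limma adjusted p = 0.000917). Thy1 rose by 0.70, Il2rb by 0.89, the adaptor Skap1 by 0.68 and Ms4a4b by 0.82 per unit. Pdcd1, which encodes PD-1, rose by 0.72 per unit (SE 0.09, limma adjusted p = 0.00813), from 2.26 to 4.59 TPM in T cell-poor to 5.78 to 14.98 TPM in T cell-rich libraries. Gimap1 rose by 0.90 per unit. The last 2 of the 16, Plac8 and Ly6c2, are on the macrophage and monocyte list and are described with it. Leaving out each library in turn left 8 to 21 genes, 8 without A3, and 8 of the 16 passed in every such fit, namely Cd2, Gimap4, Il2rb, Nkg7, Plac8, Sh2d2a, Thy1 and Xcl1. No filter left 7 genes.

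**Figure D3:**
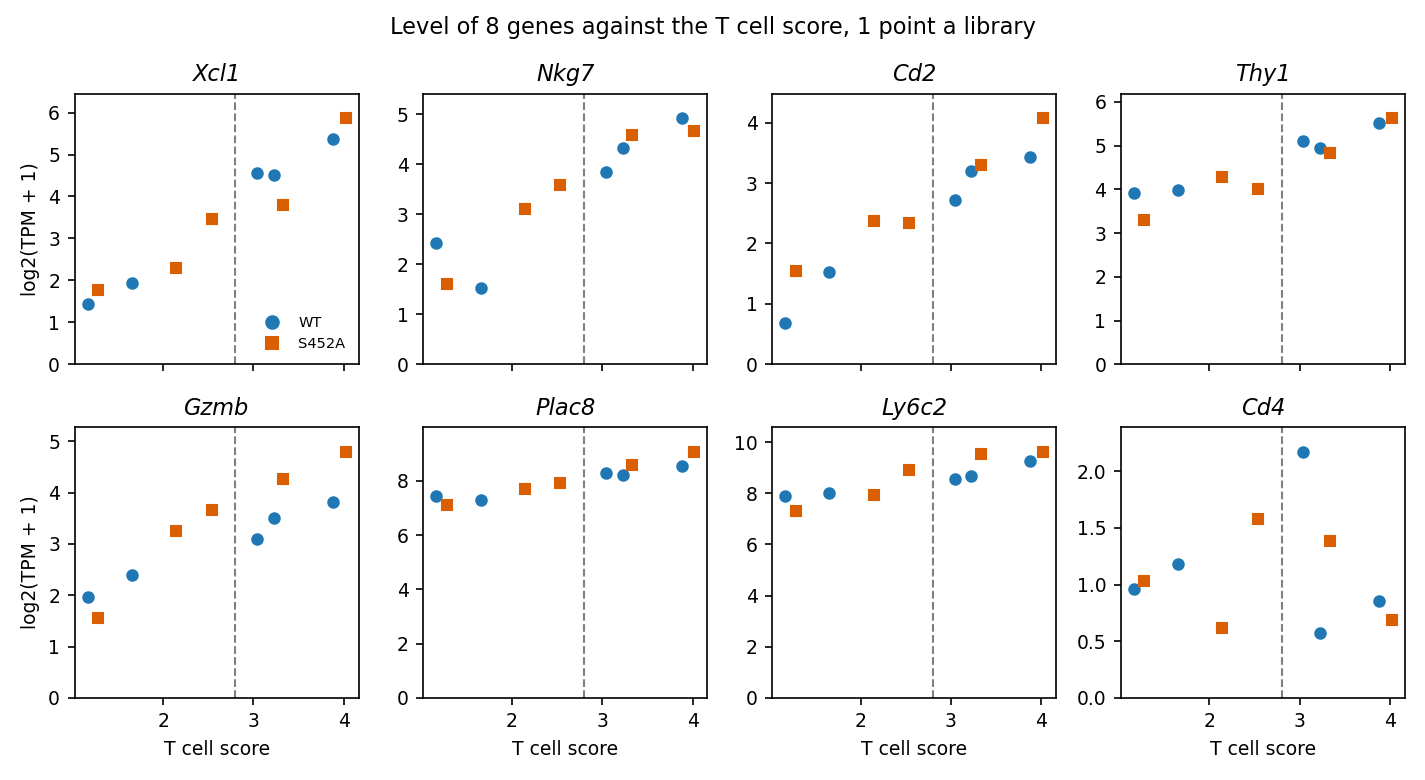
log2(TPM + 1) of 8 genes against the T cell score, 1 point a library (circles WT, squares S452A), with a dashed line at the threshold of 2.8. Xcl1, Nkg7, Cd2, Thy1, Gzmb, Plac8 and Ly6c2 are higher at high scores in both genotypes, and Cd4 shows no such relation.

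The lists of T cell genes that were not in the score were compared by group. Of the list of other receptor signalling and lineage genes, 26 of 39 passed the filter, 25 of these had a difference above 0, the median was 1.12 against 0.01 for all genes, 14 separated the groups (0.747% of all genes), 2 of them because they reached the filter only through T cell-rich libraries (Ikzf3 and Cd7, named after their values were seen), and 0 passed between them, while 6 passed with the score (0.115% of all genes). Lck, the kinase that starts receptor signalling, was at 7.95 to 21.8 TPM in T cell-rich and 3.61 to 5.14 TPM in T cell-poor libraries (difference 1.41, adjusted p = 0.0765). Zap70, the kinase that acts after it, was at 3.16 to 4.22 TPM against 0.31 to 2.46 TPM (difference 1.36, adjusted p = 0.0819). Satb1, a chromatin organiser of T cells, had means of 5.26 TPM against 0.812 TPM and no overlap (difference 1.80, adjusted p = 0.058). By contrast Cd247, the zeta chain of the receptor complex, overlapped widely, at 0.99 to 5.62 TPM against 0.51 to 3.28 TPM.

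The cytotoxic list had 19 of 25 genes above the filter, 17 with a difference above 0 and a median of 1.37. Of the 19, 4 separated the groups (0.747% of all genes) and 5 passed with the score (0.115% of all genes). Ifng, the cytokine interferon gamma, was at 2.43 to 8.91 TPM in T cell-rich and 0.13 to 2.32 TPM in T cell-poor libraries (difference 1.37, adjusted p = 0.643). Prf1 and Gzmk lay below the filter, at most at 3.11 TPM and 2.26 TPM. Of the inhibitory receptor and exhaustion list, 16 of 20 genes were tested and 15 had a difference above 0, with a median of 0.38. In this list 2 genes separated the groups (0.747% of all genes), Pdcd1 and Cxcr6 (2.75 to 7.19 TPM against 0.23 to 2.37 TPM). Lag3 differed by 0.36 and overlapped, and Tox, a factor of exhausted cells, was at 0.78 TPM or less in all libraries. In the naive, memory and residency list, 14 of 18 genes were tested, with a median of 0.05 and 9 above 0. Tcf7, the TCF1 factor of naive and stem-like T cells, which is on the signalling and lineage list, was at 2.67 to 5.18 TPM against 0.63 to 2.14 TPM with no overlap (adjusted p = 0.235).

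Several genes known from T cells did not separate the groups. Il7r, the interleukin 7 receptor, was at 82.4 TPM in WT1, 104 in WT3, 200 in WT4, 313 in A3 and 125 in A5, against 148 in WT2, 113 in WT5, 152 in A1, 147 in A2 and 203 in A4. The lowest and the highest value both belonged to T cell-rich libraries. Ccl5, a chemokine of effector T cells and of macrophages, was at 277 to 1150 TPM against 535 to 1256 TPM, with the highest value in the T cell-poor library A4. Cd4 was at 0.49 to 3.51 TPM against 0.53 to 1.99 TPM (difference 0.04, interval from -0.69 to 0.78), and Foxp3, the factor of regulatory T cells, stayed at 1.99 TPM or less in every library. Of the CD4 and regulatory T cell list, 7 of 12 genes were tested, 5 were above 0 and 0 separated the groups (0.747% of all genes upwards). For so few genes, 0 is near that share. Tnfrsf18, a costimulatory receptor, was at 4.28 to 15.3 TPM against 0 to 4.45 TPM.

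Over the panel of 33 T cell genes named for this comparison, 24 passed the filter, 23 of them with a difference above 0, 10 separated the groups upwards (0.747% of all genes) and 0 downwards, 0 passed between the groups and 5 passed with the score (0.115% of all genes). The 1 gene below 0 was Ccl5. Ptpn22 itself, the gene altered in these mice, was at 15.7 to 20.8 TPM in T cell-rich and 9.68 to 25.2 TPM in T cell-poor libraries, and its difference was 0.36 (SE 0.20, adjusted p = 0.9998).

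Taking the 104 genes that separated the groups upwards, 21 were on the lists of T cell or natural killer cell genes, where 86 of the 13922 tested genes are, and 7 were Gimap genes, of which 8 were tested. Of the remaining ones 3 were on the macrophage and monocyte list, Plac8, Ccr2 and Fcgr1, where 35 further tested genes are. None of the 36 genes that separated downwards was on any of these lists, which is near the share of these lists among all tested genes. Genes made by T cells share their source with the score, so these counts are a description.

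Some markers of monocytes moved with the score. Plac8, a gene of inflammatory monocytes that lymphocytes also express, was at 298 TPM in WT1, 371 in WT3, 315 in WT4, 540 in A3 and 382 in A5, against 175 in WT2, 157 in WT5, 139 in A1, 245 in A2 and 209 in A4, and it rose by 0.58 log2 units per unit of score (SE 0.06, limma adjusted p = 0.00329). Ly6c2, a surface protein of Ly6C-high monocytes and of activated CD8+ T cells, was at 376 to 791 TPM against 157 to 475 TPM and rose by 0.68 per unit (SE 0.10, limma adjusted p = 0.0255), with the reservation that its transcript is 96.6% identical to Ly6c1 over 328 bases. Ccr2, the receptor by which monocytes enter tissue, was at 45.1 to 60.6 TPM against 18.4 to 40.4 TPM without overlap (difference 0.69, adjusted p = 0.718). Chil3 was at 20.0 to 41.3 TPM against 7.44 to 31.1 TPM. Neither Ccr2 nor Chil3, both added after their values were seen, passed with the score (limma adjusted p = 0.799 and 0.996). The Plac8 and Ly6c2 levels were several fold those of all 8 T cell genes of the score together. Which cells made these transcripts cannot be read from such levels.

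All 36 genes of the macrophage and monocyte list were tested, 15 had a difference above 0 and 21 below, and the median was -0.03. Of these, 3 separated the groups upwards and 0 downwards (0.747% and 0.259% of all genes), 5 were higher and 0 lower at an unadjusted p under 0.05, and 2 passed with the score (0.115% of all genes). Adgre1, which encodes the macrophage marker F4/80, was at 163 to 208 TPM in T cell-rich and 159 to 237 TPM in T cell-poor libraries. Apoe, an apolipoprotein abundant in tumour macrophages, was at 8290 to 12537 TPM against 9118 to 12719 TPM. The part of monocytes in the rise of Plac8 and Ly6c2 was not tested. With the mean of the macrophage list as a covariate, 21 genes rose with the score, among them all 16, 5 fell, and 0 passed between the groups. That list holds Plac8 and Ly6c2 themselves, and its mean was 8.15 in T cell-rich and 8.11 in T cell-poor libraries. The fit therefore cannot tell the part of monocytes.

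**Figure D4:**
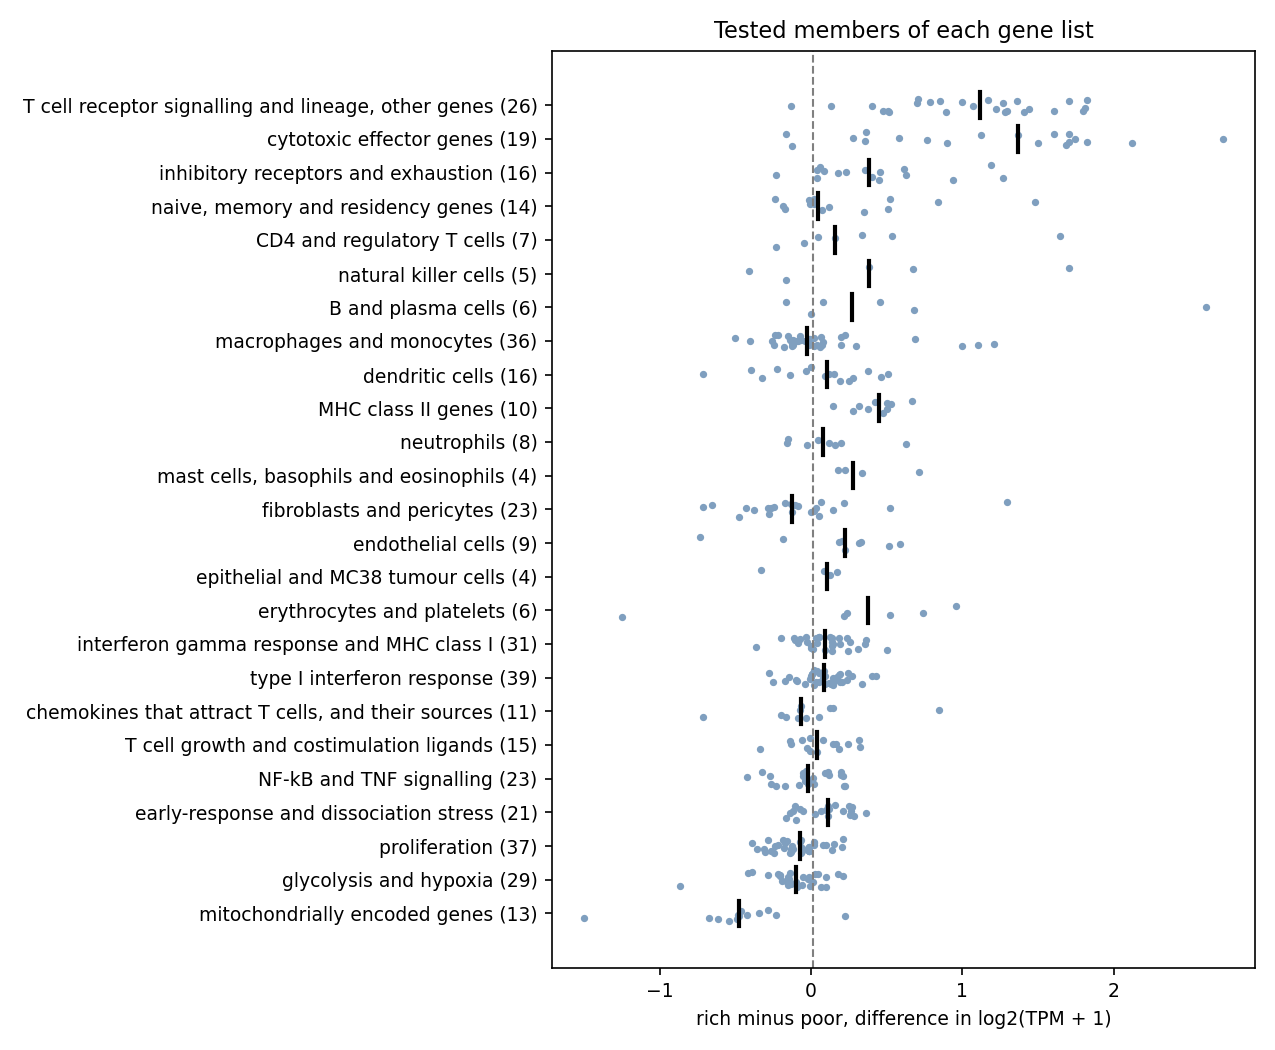
Difference between T cell-rich and T cell-poor libraries in log2(TPM + 1) for the tested members of each gene list with at least 4 of them (points, number in brackets), with a bar at the list's median and a dashed line at the median of all genes, 0.01. The receptor signalling and cytotoxic lists lie furthest to the right, at medians of 1.12 and 1.37, and mitochondrially encoded genes to the left, at -0.47.

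Markers of other cells that the sort could hold were near the median of all genes or showed no separation. Over all genes 0.747% separated upwards and 0.259% downwards, so 0 in a list of this size is near the share of all genes. The dendritic cell list had 16 genes tested with a median of 0.10 and 0 that separated the groups. All 10 tested MHC class II genes had a difference above 0, with a median of 0.45, but 0 separated the groups, and their sum ranged over 2555 to 4092 TPM in T cell-rich and 1574 to 4410 TPM in T cell-poor libraries. For natural killer cells, 5 of 15 genes were tested with a median of 0.38, and the defining receptor genes Ncr1 and Klrb1c were at most at 0.41 TPM and 0.27 TPM. Neutrophil genes (8 tested) had a median of 0.08, and Ly6g was listed at 0 everywhere. Their 1 gene that separated the groups (0.747% of all genes) was Hdc, the histamine-forming enzyme. Mast cell genes (4 tested) had a median of 0.28, endothelial genes (9 tested) 0.23, epithelial and tumour cell genes (4 tested) 0.11, and erythrocyte and platelet genes (6 tested) 0.38, with 0 separating in each. The fibroblast list (23 tested) had a median of -0.13. Its 1 gene that separated the groups (0.747% of all genes) was Thy1, which T cells carry too.

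Immunoglobulin transcripts were uneven. For B and plasma cells, 6 of 19 genes were tested, with a median of 0.27 and 0 that separated the groups (0.747% of all genes upwards). Igkc, the kappa light chain constant gene, was at 33.4 TPM in WT1, 33.8 in WT3, 1.06 in WT4, 2.57 in A3 and 108 in A5, against 0 to 2.85 TPM in T cell-poor libraries. Of 382 annotated immunoglobulin segments, 46 were above 0 in A5, 13 in WT1 and at most 3 in each of the other 8 libraries. The part of B lineage cells in results that rest on A5 was not tested.

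Of the programmes that T cells could drive in neighbouring cells, none held a gene that passed or separated the groups. Over all genes 0.0287% passed as higher, 0.747% separated upwards and 0.259% downwards. For lists of this size, 0 is near those shares and is no result about these programmes. The interferon gamma and MHC class I list had 31 genes tested, 21 above 0 and a median of 0.10. The type I interferon list had 39 tested, 31 above 0 and a median of 0.08, and 0 separated in both. Over all genes 52.3% lay above 0, and the median was 0.01. In the interferon gamma list, Ciita, the activator of MHC class II genes, was at 2.04 to 5.50 TPM against 1.84 to 2.87 TPM (difference 0.50, limma adjusted p = 0.9998). Chemokines that attract T cells (11 tested, median -0.07), costimulation and growth ligands (15 tested, median 0.04) and NF-kB and TNF genes (23 tested, median -0.02) held 0 genes that separated the groups. Of the early-response list 21 genes were tested, with a median of 0.11.

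Proliferation genes had a median of -0.07, with 9 of 37 above 0, and Mki67, a marker of cycling cells, was at 20.3 to 36.9 TPM in T cell-rich and 27.7 to 39.2 TPM in T cell-poor libraries. Glycolysis and hypoxia genes had a median of -0.10, with 8 of 29 rows above 0. Mitochondrially encoded genes stood lowest of all lists. Of 13 genes, 12 were below 0, the median was -0.47, 10 had an unadjusted p under 0.05, 0 passed and 0 separated the groups (0.259% of all genes downwards). Their share of all TPM was 2.85% to 5.30% in T cell-rich and 3.94% to 6.75% in T cell-poor libraries. The lowest share, 2.85%, was that of A3, which also had the highest T cell score, and the highest, 6.75%, that of WT5. The share did not follow the score throughout, at 3.94% in A1 (score 1.28) and 5.30% in WT1 (score 3.23). The list also differed between genotypes, with a median of -0.51 for S452A minus WT in the fit with the groups as a term. The part of the mitochondrial share, which can reflect RNA quality or cell state, in the other differences was not tested.

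No gene passed as lower in T cell-rich libraries, and the 5 of smallest p were a mixed group. Lyz1, a lysozyme, was at 1.94 TPM in WT1, 1.35 in WT3, 1.23 in WT4, 1.46 in A3 and 0.59 in A5, against 5.56 in WT2, 6.30 in WT5, 5.05 in A1, 3.71 in A2 and 8.30 in A4. The groups did not overlap, and the difference was -1.59 (SE 0.23, adjusted p = 0.0505). Its transcript is 95.8% identical to that of Lyz2 over 1264 bases. Lyz2 was far more abundant and overlapped, at 1185 to 2005 TPM against 1267 to 3155 TPM (difference -0.25, SE 0.24). The part of Lyz2 reads in the level of Lyz1 was not tested. Timp2, an inhibitor of matrix metalloproteinases, was at 67.7 to 96.8 TPM against 111 to 142 TPM (difference -0.64, SE 0.11, adjusted p = 0.0765). Ovgp1, an oviduct glycoprotein, was at 0.05 to 3.33 TPM against 5.08 to 11.1 TPM (difference -2.11). The remaining ones, Rnu2-10 (-1.47) and Snora73b (-2.30), encode small nuclear and nucleolar RNAs with near-identical copies elsewhere in the annotation, so their values are uncertain.

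Both genotypes held T cell-rich and T cell-poor libraries. The score was 2.59 ± 1.14 (SD, n = 5) in WT and 2.66 ± 1.06 (SD, n = 5) in S452A, a difference of 0.07, given with no test. Since T cell content varied so much within each genotype, the panel of T cell genes was compared between genotypes with and without it as a term. The median SE of the 24 panel differences was 0.42 with no T cell term, 0.28 with the groups as a term and 0.25 with the score as a term. The SE was smaller with the score than without it for 21 of 24 panel genes, against 4400 of all 13922 genes. Panel and score both hold T cell genes of the same libraries, so this contrast is a description. None of the 24 passed in any of the 3 fits, and the smallest adjusted p was 0.952, 0.935 and 0.955. The size of the differences depended on the term, with a panel median of 0.11 with no T cell term, 0.34 with the groups and 0.05 with the score. Gzmb differed by 0.55 (SE 0.54) with no T cell term, by 0.85 (SE 0.36) with the groups and by 0.49 (SE 0.22) with the score. Cd2 differed by 0.41 (SE 0.57), 0.78 (SE 0.27) and 0.35 (SE 0.17) in the same order. Cd6, a receptor that tunes T cell activation, differed by -0.70 (SE 0.45), -0.44 (SE 0.28) and -0.74 (SE 0.22), with an adjusted p of 0.955 in the last fit. With the groups as a term, 1 gene (0.00718% of 13922) differed between genotypes, the predicted gene Gm36079, which was listed at 0 in all 5 WT libraries and at 4.69 to 16.8 TPM in S452A libraries (adjusted p = 0.00108). It is 99.8% identical to Gm21188 over 573 bases. It reached the filter of 1 TPM only through the S452A libraries, as did 3 of the 13922 genes, so it had to differ to be tested and its call is a description.

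Whether the difference between T cell-rich and T cell-poor libraries was itself different in S452A was tested with an interaction term. No gene passed (0% of 13922, limma), and the smallest adjusted p was 0.0536. At an unadjusted p under 0.05, the T cell-rich minus T cell-poor difference was more positive in S452A for 264 genes and more negative for 655. A more negative difference need not be smaller in size. The excess of more negative differences depended on the scaling: the numbers were 425 and 486 with median log ratio scaling, and 389 and 423 with quantile normalization, and the median over all genes was -0.09, 0.0037 and 0.011 in the 3 fits. The gene of smallest p was Tbx3, a T-box transcription factor, which was at 9.08 TPM in WT1, 13.8 in WT3 and 9.92 in WT4 against 2.31 in WT2 and 2.68 in WT5, but at 2.25 in A3 and 4.51 in A5 against 9.95 in A1, 13.7 in A2 and 11.6 in A4. Its T cell-rich libraries thus stood above the T cell-poor ones in WT and below them in S452A, by 1.75 and -1.58 on the log2 scale. Serpinf1, a secreted antiangiogenic protein, and Fasn, the fatty acid synthase, showed the same arrangement, with differences of 0.88 and 0.58 within WT and -1.39 and -1.48 within S452A (adjusted p of the interaction 0.229 for both). These 3 genes were picked after their values were seen, 337 of 13922 genes separated in opposite directions in the 2 genotypes, and the groups hold only 2 or 3 libraries each.

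**Figure D5:**
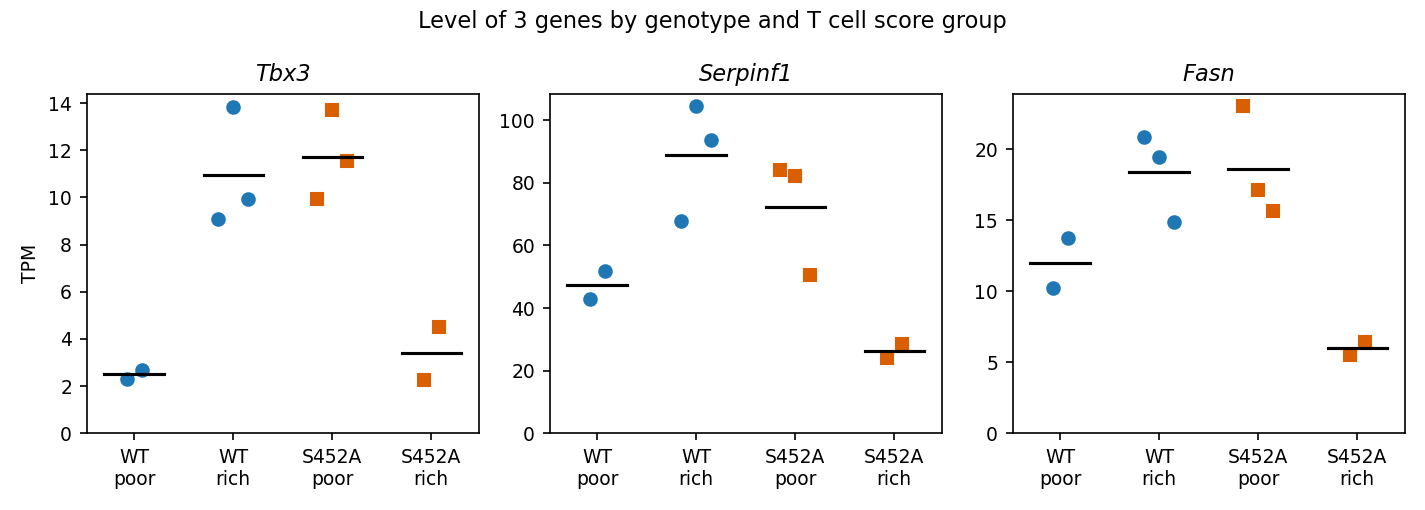
Level in TPM of Tbx3, Serpinf1 and Fasn by genotype and T cell group, 1 point a library and a bar at the mean of the 2 or 3 libraries. In WT the T cell-rich libraries lie above the T cell-poor ones and in S452A below them, as in Tbx3, with 9.08 to 13.8 TPM in WT T cell-rich and 2.25 to 4.51 TPM in S452A T cell-rich libraries.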

How the data were processed

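RNA was purified on small columns (RNeasy Micro), and 40 ng went into each strand-specific library, per the labels' protocols. STAR 2.7.9a, RSEM 1.3.0 and GRCm38.p6 were used, per the submitters' processing notes, and neither annotation release nor strand setting is stated in them. The deposited values are TPM, which correct for gene length and share one total, so the depth and precision of each library are unknown, and less of one transcript class raises the others. Columns were matched through the sample descriptions, and groups are those of the genotype labels. By versioned ID, 55094 of 55487 rows were found in GENCODE M21, and 221 rows that share a symbol were kept apart.

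The T cell score was computed from the 8 genes with a pseudocount of 1 and cut at 2.8. The 8 genes were left out of the test. The other 13922 genes that reached 1 TPM in 5 or more libraries were fitted as log2(TPM + 1) with limma 3.58.1 in R 4.3.3 (lmFit, eBayes with a trend, 2-sided, Benjamini-Hochberg over all genes), with group and genotype as terms. Further fits used the score as a continuous term, and an interaction of group and genotype. Intervals are at 95%. The members, the gene lists, the panel and the tests were chosen with earlier results of these data known, so nothing here is independent of them. Named genes are the 8 of the score, the panel, the genes that passed with the next 5 of smallest p in each direction without predicted genes, and, of each list, up to 4 genes of smallest p where any passed or up to 2 where none did. Not all of the latter are given with values. All genes that rose with the score are named too. Gimap genes, Gm36079, Tbx3, Serpinf1, Fasn, Ccr2, Chil3, Adgre1, Apoe and Lyz2 were added after their values were seen. Near-identical copies were searched with blastn 2.17.0. Promoters are from RefSeq. The rest used scipy 1.17.1 and pandas 2.3.3 in Python 3.11.15, with plots by matplotlib 3.10.9. The fit was first tested on simulated data. Some results, among them 1 of the 4 genes that passed between the groups, are not reported here.

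Alternatives were other pseudocounts and filters, other scalings, robust moderation, sample quality weights, the mouse number as a block, leaving out each library, leaving out the libraries nearest to the threshold, no genotype term, the score as a term and the macrophage list mean as a covariate. Those of the fit on the score were added after the data were seen.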

Additional observations from a re-analysis of the deposited data

Results flagged for a closer look

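A single library stood apart from the other 4 of its group in 14 of 220 groups examined by Dixon's criterion, where chance marks about 1 in 20. Among T cell-poor libraries, A2, the one nearest to the threshold, was highest for Xcl1 (10.1 TPM), Klrc1 (3.65 TPM) and Ciita (2.87 TPM). A4 was highest for Ctsw (6.95 TPM) and Ccl5 (1256 TPM) and lowest for Cdh1 (0.47 TPM), and A1 was highest for Ccl17 (15.4 TPM). Among T cell-rich libraries, A3, with the highest T cell score, was highest for Cxcr6 (7.19 TPM), Hdc (24.9 TPM) and Bnip3 (94.8 TPM) and lowest for Zbtb7b (21.4 TPM). WT4 was highest for Ppbp (44.4 TPM), and A5 for Gimap5 (6.48 TPM) and for the number of immunoglobulin segments above 0 (46).

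In 3 of the named genes, and in 337 of all 13922 tested, the T cell-rich libraries lay on opposite sides of the T cell-poor ones in WT and S452A. For the 3, the difference between genotypes, from the interaction term, was -3.33 for Tbx3, -2.27 for Serpinf1 and -2.06 for Fasn on the log2 scale, and none passed (limma adjusted p = 0.0536, 0.229 and 0.229).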

How the results depend on the processing

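The 4 genes higher in T cell-rich libraries became 16 with the score as a continuous term, 13 with no genotype term and 8 with robust moderation. They became 0 with the macrophage mean as a covariate, with no filter, with a pseudocount of 0.1, with the replicate block, and without the 4 libraries nearest to the threshold. Leaving out each library gave 0 to 8. Gimap3 stayed past the threshold in 9 of 22 alternatives, Gimap4 in 10 of 23 and Gimap7 in 8 of 22, with adjusted p of up to 0.558, 0.607 and 0.694. Genes lower in T cell-rich libraries numbered 1 in place of 0 with no genotype term, with robust moderation and with sample quality weights, and 0 to 1 leaving out each library. The 16 genes that rose with the score became 7 with no filter and 0 with the replicate block, and 8 to 21 leaving out each library. In place of 0, genes that fell with the score numbered 6 with robust moderation, 5 with the macrophage mean, 1 with a pseudocount of 0.1, 1 with TPM of 1 or more in all 10 libraries, and 4 without A2 or without WT3. The 1 gene between genotypes became 0 with the replicate block and with TPM of 1 or more in all 10 libraries, and 2 with robust moderation. Genes with a different difference in S452A numbered 7 with no filter, 1 with a pseudocount of 0.1, 2 with the replicate block, 2 with robust moderation, 1 with TPM of 1 or more in all 10 libraries, and 0 to 1 leaving out each library. The genotype difference in T cell score ranged over -0.29 to 0.41 leaving out each library. The cause of these changes was not tested. The block and left-out libraries leave fewer degrees of freedom, and the part of this in the changes was not tested either.

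The labels do not say whether mouse numbers pair the libraries. Correlations of same-numbered deviations ran from -0.148 to 0.074, and 0 of 5 numbers correlated best with their own. These correlations cannot exclude that same-numbered mice shared a step of the work. The replicate block is given as an alternative, and with it 0 genes passed between the groups or with the score.

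Sign changes within 1 genotype were not counted for genes that had not passed, such as Fos (0.28 over all libraries, -0.055 within WT). Among 99 named genes, 8 changed sign in the alternative fits, none of which had passed. These were Apoe (0.14 with quantile normalization), Csf3r (-0.096 with the replicate block, -0.039 to 0.36 leaving out each library), Adgre1 (-0.14 to 0.018), Ccl5 (0.058 without the 4 nearest libraries, -0.42 to 0.035), Lgals4 (-0.0445 to 0.37), Il7r (-0.20 with the macrophage mean, -0.0372 with no genotype term, -0.084 with the replicate block, -0.23 to 0.28), Xist (-0.12 to 0.068) and Cd4 (-0.013 with the score, -0.11 without the 4 nearest libraries, -0.18 to 0.20), with ranges over leaving out each library.

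Depth is unknown. Most T cell genes lay under 30 TPM, where log2(TPM + 1) compresses folds, and the threshold of 2.8 divides a graded score.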
